A study of Mus musculus with 12 samples.

Results

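Zdhhc2, Fbp1, Ttc8 and Desi2 are 4 mouse genes picked because their signal was lower in granulocyte-monocyte precursors (GMPs) of mice carrying a variant form of human GFI1 (SNP) than in those of mice carrying the common human form (wtKI). They hold 12 of the 98975 probe sets that could be given 1 gene, and are 4 of 14179 genes with a value. The SNP and wtKI arrays chose them, so their difference between these groups is described here without a test. The series holds 12 Affymetrix Mouse Gene 1.0 ST arrays, 3 for each of 4 genotypes, all on the C57BL/6 strain. WT mice were wild type, KO mice were Gfi1 knock-outs, wtKI mice were human Gfi1-wt knock-ins and SNP mice were human Gfi1-SNP knock-ins, and the series set out to learn which genes the variant alters, with acute myeloid leukaemia in view. GMPs are marrow progenitors, collected here by sorting, from which granulocytes and monocytes descend. The labels state neither the age of the mice, nor how the knock-in alleles were built, nor whether each array stands for its own mouse, so the p-values rest on a spread between samples that may be technical.

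GFI1 is a zinc-finger protein that binds DNA and recruits histone demethylase and deacetylase complexes to repress transcription, and progenitors need it to form neutrophils. The 4 genes work in unrelated processes. Zdhhc2 encodes a palmitoyltransferase, an enzyme that attaches a fatty acid to cysteines of proteins and so helps to hold them at membranes. Fbp1 encodes fructose-1,6-bisphosphatase, which removes a phosphate in gluconeogenesis, opposite to the step of glycolysis run by phosphofructokinase. Ttc8, also called BBS8, is a subunit of the BBSome, a coat complex that moves membrane proteins out of and into the primary cilium. Desi2 belongs to a small family of peptidases described as removing SUMO from proteins.

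The 250 bases before the start of transcription are shown for the members that the promoter table held, 3 of the 4, because GFI1 acts by binding DNA and these genes were all lower with the variant. The sequences are from RefSeq (GRCm38.p6), 5′ to 3′ on the strand of the gene, which is the minus strand for Fbp1 (chr13:62888283-62888532) and the plus strand for Ttc8 (chr12:98920324-98920573) and Desi2 (chr1:178187167-178187416). Capitals mark AATC, the core of the site that GFI1 is known to bind, or GATT, the same letters on the other strand.
Fbp1: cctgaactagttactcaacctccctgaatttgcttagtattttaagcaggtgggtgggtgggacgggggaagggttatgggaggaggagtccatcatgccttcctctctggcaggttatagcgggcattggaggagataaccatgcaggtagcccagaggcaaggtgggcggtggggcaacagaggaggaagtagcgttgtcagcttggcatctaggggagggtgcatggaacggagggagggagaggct
Ttc8: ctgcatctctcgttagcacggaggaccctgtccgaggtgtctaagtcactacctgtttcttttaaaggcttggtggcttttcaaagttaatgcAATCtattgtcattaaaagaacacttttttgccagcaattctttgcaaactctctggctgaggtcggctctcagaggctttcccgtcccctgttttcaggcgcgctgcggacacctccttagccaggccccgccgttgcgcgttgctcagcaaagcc
Desi2: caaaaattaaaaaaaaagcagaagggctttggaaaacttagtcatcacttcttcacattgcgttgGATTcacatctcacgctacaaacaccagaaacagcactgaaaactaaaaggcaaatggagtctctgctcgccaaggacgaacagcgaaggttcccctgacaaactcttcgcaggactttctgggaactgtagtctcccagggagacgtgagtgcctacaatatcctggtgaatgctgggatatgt
The window of Ttc8 held 1 AATC on its own strand, that of Desi2 held 1 on the other strand, and that of Fbp1 held 0. Of 32851 promoter windows of the same length, 69% held at least 1 match on either strand, with a median of 1. The longer form AAATCA, which contains AATC and was searched on both strands, was in none of the 3 windows and in 12.4% of all windows. These letter matches are a description of the sequence and no measurement of binding.

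The GMP markers were present on all arrays. The mean of 9 GMP genes measured of 10, among them the granule genes Mpo and Ctsg, lay between 9.34 and 9.85 (log2) on 11 arrays and at 8.37 on SNP 1. SNP 1 and KO 1 stood apart: their median correlations with the other arrays were 0.633 and 0.701, against 0.836 to 0.886 for the other 10. The means of the late neutrophil, erythroid and B-lineage markers were 10.95, 9.52 and 8.84 on SNP 1, and lay between 5.57 and 7.50, 5.72 and 7.73, and 5.13 and 6.21 on the other 11. Each of the measured members of these lists (12, 8 and 7) was higher on SNP 1 than averaged over SNP 2 and SNP 3. Y-linked Eif2s3y was at 2.39, 1.71 and 2.15 on WT 3, wtKI 2 and wtKI 3, and between 7.74 and 8.59 on the other 9, so that by this gene wtKI held 1 male and 2 female samples and SNP only male ones. Gfi1 itself, the targeted gene, was not lower in KO, at 6.33, 6.78 and 6.57 against 5.75, 5.71 and 6.26 in WT (0.66 ± 0.21, limma adjusted p = 0.80), and since the labels do not say which part was removed this does not check the KO label.

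All 4 genes were lower on every SNP array than on every wtKI array, and they reached that difference in 3 ways when WT and KO were set beside it. Ttc8 and Desi2 were low in SNP and overlapped among the other 3 genotypes. Fbp1 was high in wtKI and low in the other 3. Zdhhc2 was high in KO and wtKI, lower in WT and lowest in SNP. In all, 7.41% of genes were lower in SNP than in wtKI without overlap; since the members were chosen on this contrast, their 4 of 4 is not read against it.

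**Figure D1:**
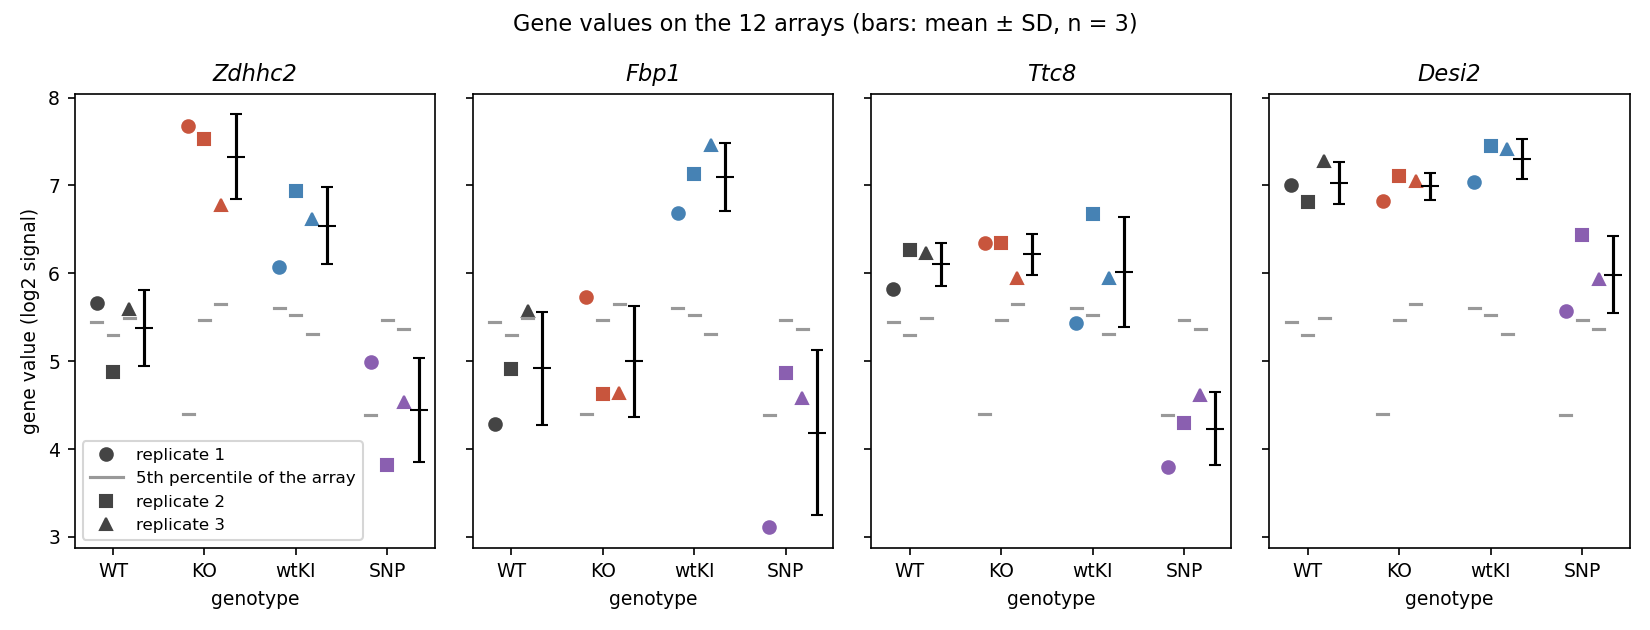
Gene values (log2 signal) of the 4 genes on the 12 arrays by genotype; circles, squares and triangles are replicates 1, 2 and 3, black bars are the mean ± SD of 3 arrays, and grey dashes are the 5th percentile of all probe sets on that array. SNP is the lowest group for each gene, wtKI stands alone at the top for Fbp1, and KO is the highest group for Zdhhc2.

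Ttc8, the BBSome subunit, had gene values of 3.79, 4.30 and 4.61 in SNP and of 5.43, 6.67 and 5.95 in wtKI. In WT they were 5.82, 6.26 and 6.23, and in KO 6.35, 6.35 and 5.95. The SNP arrays lay below all 9 others, while the other groups overlapped one another. The mean was 4.23 ± 0.41 in SNP, 6.02 ± 0.62 in wtKI, 6.11 ± 0.25 in WT and 6.22 ± 0.23 in KO (SD, n = 3). The log2 difference of SNP was -1.79 ± 0.31 (SE from the limma fit) from wtKI, a 3.45-fold difference, -1.87 ± 0.31 from WT and -1.99 ± 0.31 from KO. Because the bulk RNA came from sorted populations, fewer cells that express a gene and less of its RNA per cell cannot be told apart, here and for the other genes.

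Of the 4 probe sets of Ttc8, 3 followed this order. Probe set 10397688 showed it most widely, at 2.54, 4.09 and 3.84 in SNP against 5.34, 6.83 and 6.23 in wtKI, with WT between 6.12 and 6.89 and KO between 5.50 and 6.39. Probe set 10397686 was at 3.42, 4.50 and 4.35 in SNP and at 5.53, 6.50 and 5.68 in wtKI. Both separated SNP from each of the other groups. Probe set 10397687 was at 5.54, 5.94 and 6.24 in SNP and 6.21, 7.39 and 7.87 in wtKI, so SNP 3 lay just above wtKI 1, while all of WT (6.90 to 7.90) and KO (6.94 to 7.69) lay higher. Probe set 10397691 did not share the pattern. It was at 8.05, 7.09 and 4.84 in wtKI, 4.91, 3.93 and 5.56 in SNP, 4.98, 4.29 and 4.17 in WT, and 3.97, 6.94 and 6.29 in KO, so that WT and SNP lay together and wtKI spread over more than 3 units.

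Desi2, the SUMO peptidase family member, had gene values of 5.57, 6.44 and 5.94 in SNP, 7.04, 7.45 and 7.41 in wtKI, 7.00, 6.81 and 7.28 in WT, and 6.82, 7.11 and 7.05 in KO. All SNP arrays lay under the 9 others, with a gap of 0.59 to wtKI, 0.36 to WT and 0.38 to KO. SNP differed by -1.31 ± 0.23 (SE) from wtKI (2.48-fold), -1.04 ± 0.23 from WT and -1.01 ± 0.23 from KO. Means were 5.99 ± 0.44 in SNP, 7.30 ± 0.23 in wtKI, 7.03 ± 0.24 in WT and 6.99 ± 0.15 in KO (SD, n = 3).

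The probe sets of Desi2, listed in the platform annotation under the older symbol Pppde1, split 2 to 1. Probe set 10352121 was at 6.74, 7.61 and 7.11 in SNP and at 8.20, 8.61 and 8.66 in wtKI. Probe set 10352122 was at 5.84, 6.22 and 5.21 in SNP and at 6.84, 7.71 and 7.41 in wtKI. In both, WT and KO lay above every SNP array. In 10352124 only SNP 1 was low, at 5.48, while SNP 2 and SNP 3 (7.58 and 6.85) lay on either side of the wtKI values of 6.97, 7.16 and 7.03. The mean of SNP 2 and SNP 3 was 0.16 above wtKI there, the one case among the 12 probe sets in which leaving out SNP 1 turned the direction.

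Fbp1, the gluconeogenic phosphatase, had the widest difference of the 4. It was at 6.69, 7.13 and 7.46 in wtKI and at 3.11, 4.86 and 4.58 in SNP, a gap of 1.83 between the nearest arrays. WT was at 4.28, 4.91 and 5.57 and KO at 5.73, 4.63 and 4.64, both within reach of the SNP values. The means were 7.09 ± 0.38 in wtKI, 4.92 ± 0.64 in WT and 4.18 ± 0.94 in SNP (SD, n = 3), that of KO was 0.08 above WT, and the 3 lower groups overlapped one another. SNP differed by -2.91 ± 0.49 (SE) from wtKI (7.51-fold), -0.74 ± 0.49 from WT and -0.81 ± 0.49 from KO. The wtKI mean was 2.17 ± 0.49 above WT, and KO differed by -2.09 ± 0.49 from wtKI.

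Each of the 3 probe sets of Fbp1 put wtKI above all 9 other arrays, but for 2 of them the make-up of the deposited table bears on this. Every probe set in that table reaches 6.14 on at least 1 array, and 10410009 and 10410010 reach it in wtKI alone, so they could be listed only with a high wtKI value. 10410008 reaches it in all 4 genotypes. Probe set 10410008 was at 7.51, 7.95 and 8.28 in wtKI and between 3.93 and 6.45 elsewhere. Probe set 10410009 was at 6.01, 6.47 and 5.93 in wtKI and between 4.38 and 5.73 elsewhere. Probe set 10410010 was at 5.80, 6.83 and 6.55 in wtKI, between 1.51 and 4.17 in SNP, and at 5.79 on KO 1, which nearly met wtKI 1. For Fbp1 the wtKI arrays, and not the SNP arrays, were apart from the rest.

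Zdhhc2, the palmitoyltransferase, was at 7.68, 7.53 and 6.78 in KO, 6.07, 6.94 and 6.62 in wtKI, 5.66, 4.88 and 5.59 in WT, and 4.99, 3.82 and 4.53 in SNP. KO and wtKI overlapped, both lay above all WT and SNP arrays, and WT met SNP only through SNP 1. Means were 7.33 ± 0.48, 6.54 ± 0.44, 5.38 ± 0.43 and 4.45 ± 0.59 in that order (SD, n = 3). The stem cell markers, 7 measured of 8, had list means of 6.79, 6.79 and 6.75 in KO and 6.86, 7.16 and 7.27 in wtKI, above 6.30, 6.29 and 6.40 in WT and 6.24, 6.14 and 6.61 in SNP, and all 7 were higher by mean in KO and in wtKI than in WT and lower in SNP than in wtKI. The mast cell and basophil markers, 7 of 8, were at 8.91, 8.72 and 8.87 in KO, 7.63, 7.89 and 8.89 in wtKI, 7.33, 8.09 and 7.20 in WT, and 7.72, 7.31 and 7.99 in SNP, with 7 of 7 higher by mean in KO than in WT. By mean, 7 of 7 were also higher in wtKI than in WT and 6 of 7 lower in SNP than in wtKI. With Slamf1 in the list, the stem cell means lay above WT and SNP in KO and wtKI, as Zdhhc2 did, but were highest in wtKI. Slamf1 was at 6.77, 8.22 and 6.70 in wtKI and at 5.65, 4.34 and 4.77 in SNP. It ranked 7 by limma p among genes lower in SNP than in wtKI, and its share in the list means was not tested. On SNP 3 Angpt1 also lay below all wtKI arrays, while Procr, Tek, Meis1, Hlf and Mecom lay within the wtKI range. These markers were named after their values were seen. The mast cell and basophil means lay above WT and SNP in KO, while those of wtKI, WT and SNP overlapped. The part of both lists in the values of Zdhhc2 was not tested. SNP differed by -2.09 ± 0.36 (SE) from wtKI (4.27-fold), -2.88 ± 0.36 from KO and -0.93 ± 0.36 from WT, and wtKI was 1.17 ± 0.36 above WT.

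The gene value of Zdhhc2 rests on 2 probe sets that did not show the same order. Probe set 10571412 put KO and wtKI above WT and SNP. It was at 9.70, 7.54 and 6.44 in KO, 5.39, 7.10 and 6.69 in wtKI, 5.10, 3.30 and 4.33 in WT, and 3.13, 4.95 and 3.78 in SNP. WT and SNP overlapped in it, and SNP differed by -0.30 ± 0.83 (SE) from WT. Probe set 10571414 was nearly level in WT (6.21, 6.46 and 6.86), wtKI (6.74, 6.79 and 6.54) and KO (5.65, 7.52 and 7.11). In SNP it was at 6.86 on SNP 1, the same as the highest WT array, and at 2.69 and 5.29 on SNP 2 and SNP 3. SNP 1 therefore ranked lowest of the SNP arrays in one probe set and highest in the other.

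**Figure D2:**
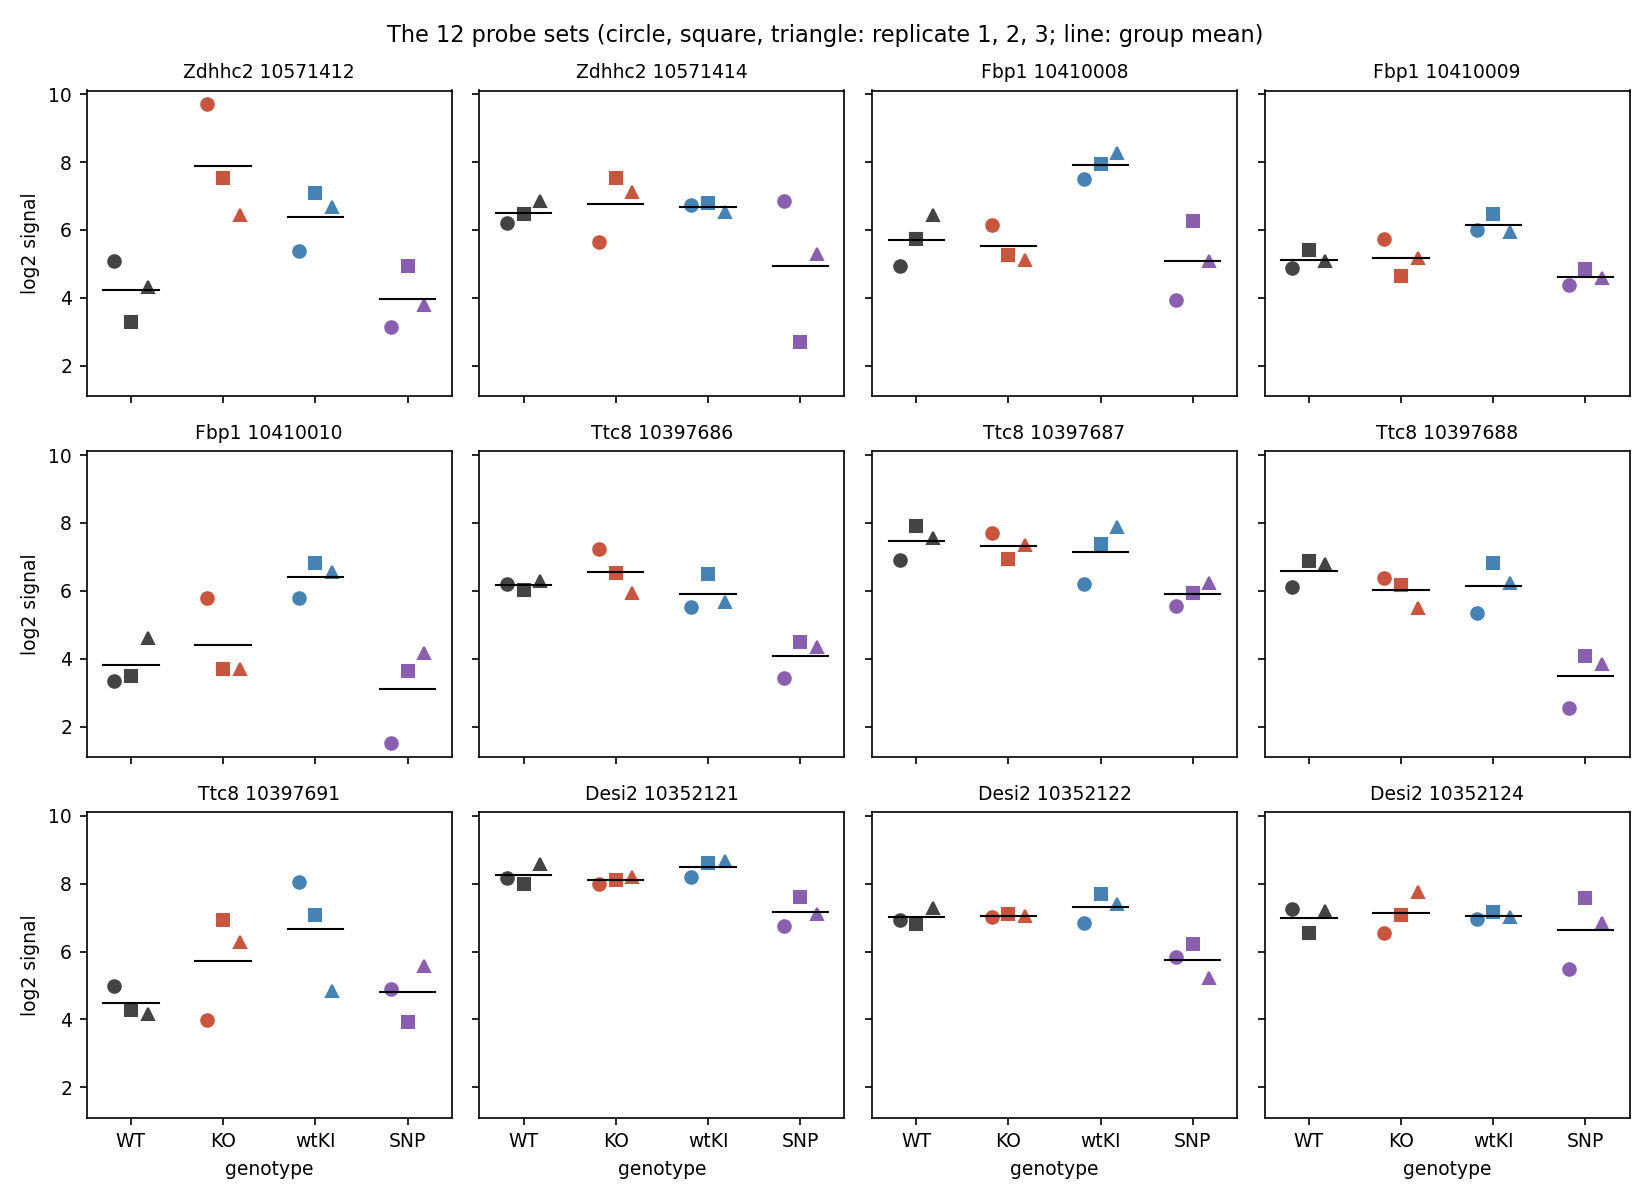
The 12 probe sets of the 4 genes (log2 signal) by genotype; symbols are the replicates and the short line is the group mean. SNP arrays lie below all wtKI arrays in 8 panels, and the exceptions are Zdhhc2 10571414, Ttc8 10397687 and 10397691, and Desi2 10352124.

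Taken probe set by probe set, the mean was lower in SNP than in wtKI in 12 of 12, and SNP lay under wtKI without overlap in 8, where 7.98% of all probe sets did. Without SNP 1 the groups were apart in 9, with 12.4% of all probe sets apart when 2 arrays were set against 3. The probe set gained was Zdhhc2 10571414. SNP also lay below WT without overlap in 6 probe sets, where 12.2% of all did, and below KO in 6, where 7.99% did. For WT these were 3 of Ttc8, 2 of Desi2 and 1 of Fbp1, and for KO 3 of Ttc8, 2 of Desi2 and 1 of Zdhhc2. wtKI lay above WT without overlap in 4 probe sets, the 3 of Fbp1 and 1 of Zdhhc2, against 5.47% of all. Fbp1 10410009 and 10410010 are in the table through wtKI alone and Zdhhc2 10571412 through KO and wtKI. They are among those 4, and among the 8 and the 9 with SNP under wtKI. Zdhhc2 10571412 is also among the 6 with SNP below KO. Ttc8 10397691, listed through KO and wtKI too, is among the 12 lower by mean. These counts are therefore not read against their shares. These comparisons share the SNP or wtKI arrays with the one that chose the genes, so no test is given for them.

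Late neutrophil, erythroid and B-lineage markers were high and GMP markers low on SNP 1, and the part of this in the results was not tested; the differences without that array were measured. The gene value on SNP 1 minus the average of SNP 2 and SNP 3 was -1.61 for Fbp1, -0.66 for Ttc8, -0.62 for Desi2 and 0.82 for Zdhhc2. Without SNP 1 the difference from wtKI was -2.37 for Fbp1, -1.57 for Ttc8, -1.11 for Desi2 and -2.37 for Zdhhc2. SNP 2 and SNP 3 still lay below all 3 wtKI arrays for each gene. Some marker lists differed from wtKI on these arrays too. The late neutrophil means were 6.86 and 7.46 against 6.53 to 7.18 in wtKI, so that SNP 2 lay within the wtKI range. Averaged over SNP 2 and SNP 3, 8 of the 12 genes were higher than in wtKI and 4 lower. Ly6g was at 3.32 on SNP 2 and 5.90 on SNP 3, against 3.05 to 3.18 in wtKI. The B-lineage means, 5.71 and 5.93, lay above the 5.15 to 5.51 of wtKI, and the stem cell means, 6.14 and 6.61, lay below the 6.86 to 7.27 of wtKI, with 7 of 7 genes lower by mean. The stem cell list holds Slamf1, at 4.34 and 4.77 against 6.70 to 8.22 in wtKI. On SNP 3 the rest of that list, apart from Angpt1, lay within the wtKI range. The part of these in the results was not tested.

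The sex of the samples, read from Eif2s3y, also differed between SNP and wtKI. wtKI 1, the male sample of its group, had the lowest wtKI gene value for each of the 4 genes: 6.07 for Zdhhc2, 6.69 for Fbp1, 5.43 for Ttc8 and 7.04 for Desi2. It still lay above all SNP arrays, and the SNP mean differed from it by -1.62, -2.51, -1.20 and -1.05 in the same order. With sex as a term the differences from wtKI were -1.75 ± 0.43 for Zdhhc2, -2.38 ± 0.56 for Fbp1, -1.43 ± 0.35 for Ttc8 and -1.06 ± 0.27 for Desi2 (SE).

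Most of the low values sat near the bottom of the arrays' scale. The 5th percentile of all probe sets was between 5.30 and 5.65 on 10 arrays and at 4.40 and 4.39 on KO 1 and SNP 1. In SNP the gene value was under it on 3 of 3 arrays for Fbp1 and Ttc8, on 2 of 3 for Zdhhc2 and on 0 of 3 for Desi2. Fbp1 was under it on 2 of 3 arrays in WT and in KO too, Ttc8 on 1 of 3 in wtKI and Zdhhc2 on 1 of 3 in WT. The sizes of these differences are therefore not exact. The gene value of Desi2 was above it on all 12 arrays, though its probe set 10352122 was under it on 1 SNP array, SNP 3.

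The log2 difference between KO and WT used no array of the choice and asks whether loss of Gfi1 moves these genes. Its SE, p-values and intervals came from the fit of all arrays, so their spread rests in part on SNP and wtKI. They are therefore not independent of the choice, and the fit of KO and WT alone is given last. None passed over all genes: Zdhhc2 was 1.95 ± 0.36 higher in KO (limma adjusted p = 0.195), Ttc8 0.11 ± 0.31 (adjusted p = 1.00), Fbp1 0.08 ± 0.49 (adjusted p = 1.00) and Desi2 -0.04 ± 0.23 (adjusted p = 1.00). Zdhhc2 alone had an unadjusted p under 0.05 (0.00022 in the limma fit), as 4.72% of genes did, and alone lay apart, with the 3 KO arrays at least 1.12 above the 3 WT arrays. KO lay above WT without overlap for 5.69% of genes. The p-value and the gap of Zdhhc2 are not read against these shares, because 1 of its probe sets is listed through KO and wtKI, as given below. The 95% intervals of the other differences ran from -0.57 to 0.79 for Ttc8, -0.99 to 1.15 for Fbp1 and -0.55 to 0.48 for Desi2. Limma called 0 genes in this comparison, 0% of 14179, with 669 at an unadjusted p under 0.05. With only KO and WT in the fit, the spread too used no array of the choice, and none of these genes passed. Zdhhc2 was 1.95 ± 0.32 higher in KO there (limma adjusted p = 0.324). Ttc8 was at 0.11 ± 0.21, Fbp1 at 0.08 ± 0.42 and Desi2 at -0.04 ± 0.19 (limma adjusted p = 0.959, 0.993 and 0.992).

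Of the 12 probe sets 8 were higher in KO by mean, 1 had an unadjusted p under 0.05 (4.98% of all in limma) and 0 passed (0.00303% of all). The 1 was Zdhhc2 10571412, which carried the gene's difference and is in the table through KO and wtKI, neither WT nor SNP reaching 6.14 there. It was 3.65 ± 0.83 higher in KO (limma adjusted p = 0.687 over the 98975 probe sets), with WT under the 5th percentile on 3 of 3 arrays, and 10571414 was 0.25 ± 0.85 higher (adjusted p = 0.99). Ttc8 10397691, 1 of the 8, was 1.26 ± 0.89 higher and is in the table through KO and wtKI too. These counts are therefore not read against their shares. On KO 1 the 2 probe sets of Zdhhc2 went opposite ways from the other KO arrays, with KO 1 minus the mean of KO 2 and KO 3 at 2.71 and -1.67. Without KO 1 and SNP 1 the gene's difference was 1.78 ± 0.36 (limma adjusted p = 0.153). With array weights, in which KO 2 had a weight of 6.85 and KO 1 and SNP 1 weights of 0.218 and 0.165, it was 2.00 ± 0.25 and passed (limma adjusted p = 0.00258), in a fit that called 507 genes. That gene value also includes 10571412, so the limit of the listing holds for it too. The p-values of these fits also rest in part on the spread of SNP and wtKI arrays, which chose the genes.

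**Figure D3:**
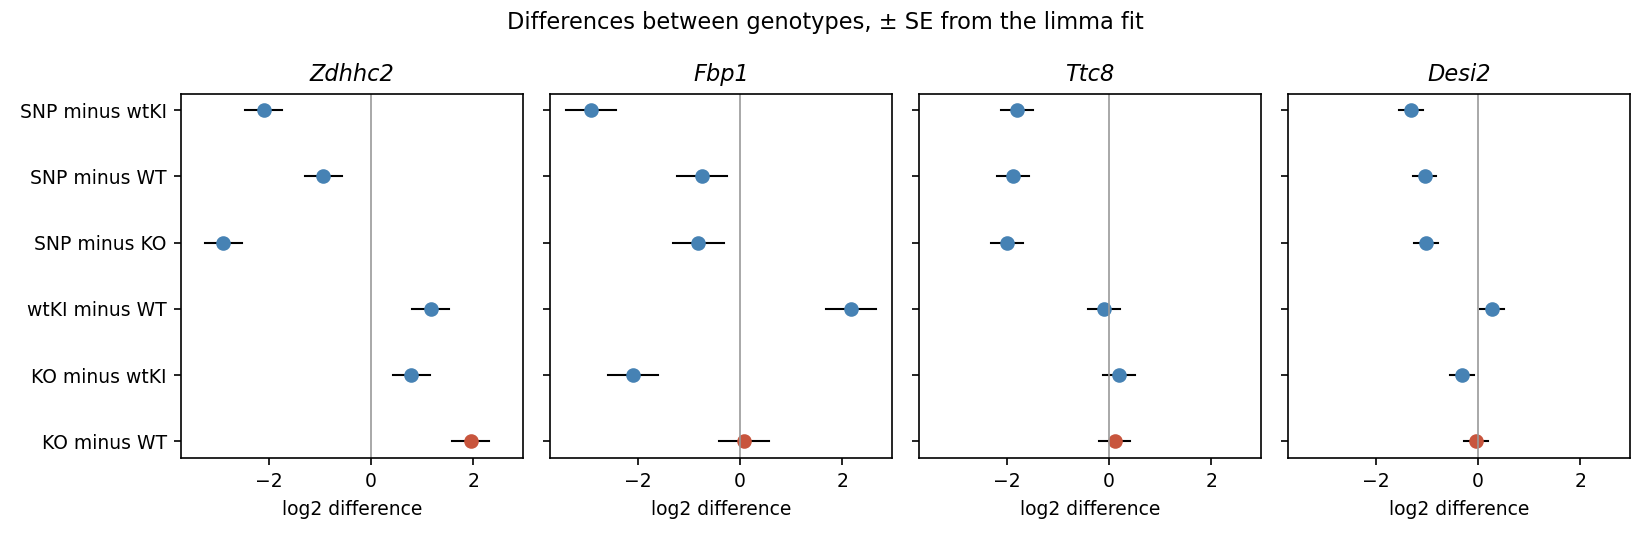
Log2 differences of the 4 gene values between each pair of genotypes, as points with ± SE from the limma fit of all arrays. Red marks KO minus WT, the pair that the choice of genes did not use, and blue the others. The SE of the red points rests in part on the SNP and wtKI arrays. Ttc8 and Desi2 are below 0 in the 3 pairs with SNP and near 0 in the rest, Fbp1 departs from 0 most in the pairs with wtKI, and Zdhhc2 is above 0 in KO minus WT.

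The other genes of each process were read from lists chosen by function. Among enzymes that add or remove palmitate and their partners, 31 of 33 were measured and 0 passed in SNP against wtKI over all genes in either direction, as did 0% of 14179 genes, with 12 higher and 19 lower by mean and a median of -0.08 against -0.02 for all genes. Limma gave an unadjusted p under 0.05 for 2 of the 31, both lower, against 8.88% of genes. These were Abhd17c, a depalmitoylase (-0.67 ± 0.26), and Golga7, the partner of a palmitoyltransferase (-0.63 ± 0.21), both with limma adjusted p = 0.551. Golga7 was at 7.45, 7.02 and 7.01 in SNP, below 7.71, 7.92 and 7.74 in wtKI. Zdhhc14, another palmitoyltransferase, had the widest difference upward (0.48 ± 0.57), with 8.09 on SNP 1 and 5.03 on SNP 2, and was at -0.22 without SNP 1. In KO against WT 0 of 31 passed, with a median of -0.03, and 0 had an unadjusted p under 0.05 in limma.

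Of the other genes of gluconeogenesis and glycolysis, 29 of 35 were measured and 0 passed in SNP against wtKI in limma. Their median was -0.11 against -0.02 for all genes, with 18 lower and 11 higher. An unadjusted p under 0.05 in limma was found for 4 of 29, 2 in each direction, beside 8.88% of all genes. The widest differences were those of Ldhb, a lactate dehydrogenase subunit (-1.02 ± 0.34), Tpi1, triose phosphate isomerase (-0.75 ± 0.25), and G6pc3, a glucose-6-phosphatase (-0.61 ± 0.36), with limma adjusted p of 0.551, 0.551 and 0.562. Without SNP 1 Ldhb was at -0.65 and Tpi1 at -0.42. G6pc3 was low on SNP 1 alone, at 7.09 against 8.79 and 8.55 on SNP 2 and SNP 3, and its difference without SNP 1 was -0.09. Pcx and G6pc, pyruvate carboxylase and the glucose-6-phosphatase of gluconeogenesis, were the 2 on the higher side, by 0.52 ± 0.19 and 0.37 ± 0.17; they were named after their values were seen. In KO against WT 0 of 29 passed, with a median of 0.00 and 1 of 29, on the lower side, at an unadjusted p under 0.05 in limma, beside 4.72% of all genes.

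The BBSome, its assembly and ciliary transport partners leaned lower in SNP, and most of the lean lay on SNP 1. Of 36 other genes 32 were measured, 24 were lower and 8 higher by mean, and 0 passed in limma. The median was -0.31 on all arrays, where that of all genes was -0.02. Without KO 1 and SNP 1 it was -0.11, where that of all genes was 0.00. Limma gave an unadjusted p under 0.05 for 1 of the 32, beside 8.88% of all genes. This was Ift81, a subunit of the intraflagellar transport train, at -1.76 ± 0.55 (limma adjusted p = 0.551). It was at 3.69, 5.53 and 5.39 in SNP against 6.07, 7.43 and 6.37 in wtKI, and -1.17 without SNP 1. Its partner Ift74 was -1.53 ± 0.80, with 4.28 on SNP 1 and 7.15 and 7.10 on SNP 2 and SNP 3, and Ift27 was -1.23 ± 0.71 (limma adjusted p = 0.551 and 0.562). The measured subunits of the BBSome itself went both ways: Bbs5, Bbs7, Bbs9 and Bbs2 were lower by mean (-1.01, -0.60, -0.41 and -0.19) and Bbs4 and Bbs1 higher (0.59 and 0.29), none passing. Without SNP 1 Bbs5 was at -0.29, Bbs7 at -0.47, Bbs9 at -0.13, Bbs2 at -0.17, Bbs4 at 0.31 and Bbs1 at 0.37. Ift74 was at -0.58 and Ift27 at -0.95 without that array. In KO against WT the list's median was -0.19, with 0 of 32 called in limma and 3 of 32, all lower, at an unadjusted p under 0.05, beside -0.02 and 4.72% for all genes.

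In the SUMO pathway 18 of 23 other genes were measured and 0 passed in SNP against wtKI in limma, as did 0% of all genes. An unadjusted p under 0.05 was found for 0 of 18, beside 8.88% of all genes. The median was -0.09 against -0.02 for all genes. Desi1, the nearest relative of Desi2, did not differ by mean (0.00 ± 0.22). The widest differences were those of Sumo3, a SUMO protein (-0.46 ± 0.23), Topors, a SUMO and ubiquitin ligase (-0.36 ± 0.28), and Sae1, a subunit of the SUMO-activating enzyme (-0.34 ± 0.27), with limma adjusted p of 0.551, 0.637 and 0.639. All 3 were lowest on SNP 1, and without it they were -0.21, -0.09 and -0.04. In KO against WT 0 of 18 passed in limma, with a median of -0.05 and 1 of 18, on the lower side, at an unadjusted p under 0.05, beside -0.02 and 4.72% for all genes.

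**Figure D4:**
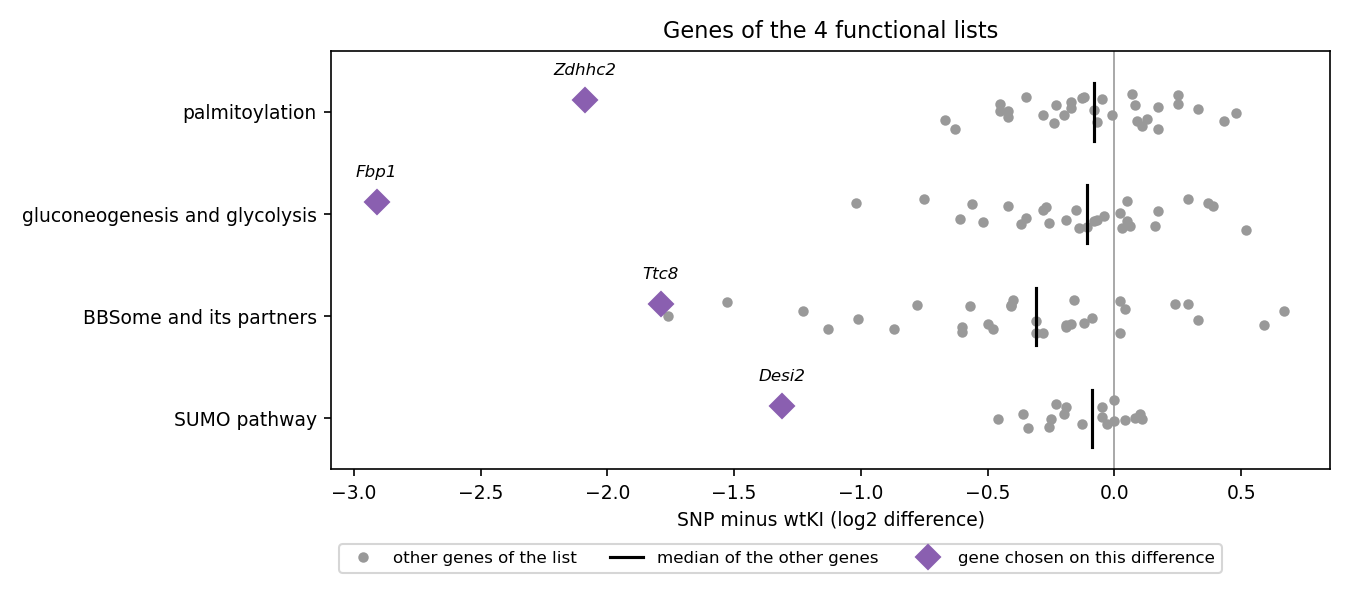
Log2 difference SNP minus wtKI of the genes of the 4 functional lists; grey points are the other genes of a list, the black line is their median, and the purple diamond is the gene chosen on this difference, drawn slightly above its row. The medians are -0.08, -0.11, -0.31 and -0.09, and the grey points reach from -1.76 (Ift81) to 0.67.

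The 4 genes lie on chromosomes 8, 13, 12 and 1, and most of the genes next to them did not share their difference. Of the 3 measured genes on either side of each, taken in the order of the GRCm38.p6 gene table, 3 of 6 were lower in SNP than in wtKI by mean around Zdhhc2, 4 of 6 around Fbp1, 3 of 6 around Ttc8 and 3 of 6 around Desi2. None of the 24 passed, the lowest limma adjusted p being 0.551. Around Zdhhc2 they ran from -0.69 ± 0.25 for Tusc3, a subunit of the oligosaccharyltransferase, to 1.30 ± 0.91 for Msr1, a scavenger receptor. Around Fbp1 they ran from -0.48 ± 0.33 for Ptch1, the hedgehog receptor, to 0.40 ± 0.17 for Fancc, a Fanconi anaemia gene. Tusc3 and Ptch1 were lower in SNP than in wtKI without overlap, as 7.41% of genes were, and no other of the 24 was. Around Ttc8 the ends were Tdp1 (-0.66 ± 0.31) and Efcab11 (1.57 ± 0.74), and around Desi2 Efcab2 (-0.61 ± 0.32) and 1700016C15Rik (0.63 ± 0.21). Cox20 and Catspere2, on either side of Desi2, were at 0.14 ± 0.20 and 0.30 ± 0.24. Desi2 shares chromosome 1 with Ifi202b, an interferon-inducible gene, and Slamf1, a surface receptor of blood stem cells, with 13 and 42 measured genes between them and Desi2. They were named after their values were seen, and differed between SNP and wtKI by more than Desi2 did (-6.71 ± 1.13 and -2.31 ± 0.43).

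**Figure D5:**
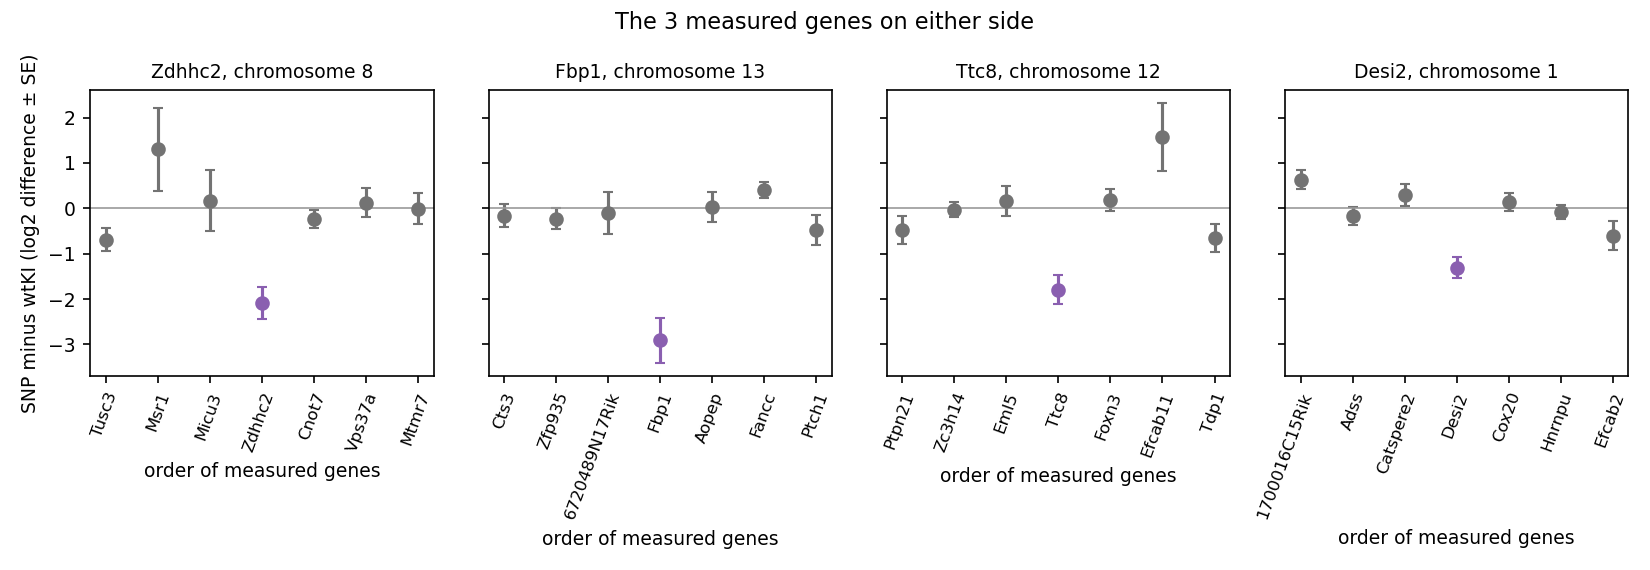
Log2 difference SNP minus wtKI (± SE from the limma fit) of each of the 4 genes, in purple, and of the 3 measured genes on either side in the order of the chromosome, in grey. The grey points lie between -0.69 and 1.57, and the purple ones between -2.91 and -1.31.

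Likeness of pattern was measured as Pearson's r of gene values over the 12 arrays, which share the choice made on SNP and wtKI. Zdhhc2 was most like Csf2rb, the shared beta chain of the GM-CSF, interleukin-3 and interleukin-5 receptors (r = 0.916), Slc35a2, a UDP-galactose transporter (0.913), Ctsl, a lysosomal protease (0.858), Csf2rb2 (0.851) and Tor2a (0.849). Csf2rb and Csf2rb2 are close copies of one another and may share signal. Their values over these arrays are what picked them. Fbp1 was most like Gdpd3 (0.89), Slc26a6, an anion exchanger (0.889), Dnajb9, a chaperone partner of the endoplasmic reticulum (0.872), Tnik (0.853) and Afdn (0.851).

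Ttc8 was most like Slc25a11, a mitochondrial carrier (0.953), Yif1a (0.921), Cuta (0.918), Spout1 (0.91) and Stk25 (0.91), and Desi2 most like Snx14 (0.935), Uqcrc1, a subunit of respiratory complex III (0.933), Jmjd8 (0.924), Tigd2 (0.923) and Cnot3 (0.922). With KO 1 and SNP 1 left out, the nearest 5 over 10 arrays changed almost wholly. Gdpd3 stayed for Fbp1 and Slc25a11 for Ttc8, and 0 of 5 were shared for Zdhhc2 and for Desi2. The nearest gene there was Zscan21 for Zdhhc2 (0.925), Timp3, an inhibitor of metalloproteases, for Fbp1 (0.931), Lsm2 for Ttc8 (0.976) and Slc25a39 for Desi2 (0.951). Among the 4 genes themselves r over 12 arrays ran from 0.422 for Zdhhc2 and Fbp1 to 0.87 for Ttc8 and Desi2.

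Other genes had wider differences between SNP and wtKI than the 4 that were chosen, among them Ifi202b and Sycp1, a protein of meiotic chromosomes with a mean of 2.85 in SNP and 7.34 in wtKI. Both were named after their values were seen.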

How the data were processed

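GMP RNA of 12 mouse samples was amplified, labelled with biotin and measured on whole-transcript arrays of 1 Affymetrix design. The deposited values are log2 signals, for which the submitters' processing notes name RMA; a version of it is not given in the sources used here. The table holds 105661 probe sets, and the platform annotation names 1 gene for 98975 of them, more than 1 for 1703 and no gene for 4983. Symbols were brought up to date (1776) with a RefSeq table of GRCm38.p6, used only for names and for gene order. Every probe set reaches 6.14 on some array, so low genes are missing from the table. Probe sets of a gene were joined by median polish into 14179 gene values.

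The 12 arrays entered 1 model in limma 3.58.1 (R 4.3.3; functions lmFit and eBayes). P-values were adjusted by Benjamini-Hochberg across every gene or every probe set, with 0.05 as the threshold. Gene lists were counted, not tested. For arrays, their number limits the precision. The members, lists, naming rules and alternatives were chosen with earlier results of these data known. Named were the 4 genes and their probe sets, the 3 genes of each functional list with the widest difference between SNP and wtKI, the 3 measured neighbours on either side, and the 5 genes most correlated with each; the BBSome subunits, Desi1 and those marked in the text were named after their values were seen. Alternatives were the joining of probe sets, normalization, array weights, sex or replicate number as a term, dim genes left out, and arrays left out. Deviations from the group means did not in general go with the replicate number. Their r was between -0.187 and 0.353 for same-numbered arrays and between -0.33 and 0.313 for others. The highest, 0.353, was that of KO 1 with SNP 1, and all 3 same-numbered pairs of KO and SNP were over 0.1. No 2 arrays had more than 0.0511% of probe sets at exactly equal deposited values.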

Additional observations from a re-analysis of the deposited data

How the results depend on the processing

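The differences SNP minus wtKI of the 4 genes were negative under every alternative run on them. Leaving out each array in turn, they ran from -2.37 to -1.78 for Zdhhc2, -3.25 to -2.37 for Fbp1, -2.08 to -1.46 for Ttc8 and -1.54 to -1.11 for Desi2. The probe set with the highest mean gave -1.25 for Ttc8. Median centring and repeated quantile normalization each raised the median over all genes of SNP minus wtKI by 0.11, and gave -1.98 and -1.91 for Zdhhc2 and -1.21 and -1.13 for Desi2. The count of probe sets without overlap was 8 or 9 throughout. Leaving out the dimmest 30% of genes removes Zdhhc2, Fbp1 and Ttc8, so it gave a value only for Desi2.

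For KO minus WT, leaving out each array gave 1.71 to 2.23 for Zdhhc2, the probe set of highest mean 0.25, and array weights 2.00 (limma adjusted p = 0.00258). The other genes stayed near 0 and changed sign: Fbp1 was -0.20 with the probe set of highest mean, -0.13 with quantile normalization, -0.33 with array weights and -0.29 without KO 1 and SNP 1, and from -0.29 to 0.40 with each array left out. Ttc8 was -0.13 with the probe set of highest mean and -0.03 to 0.24 with each array left out. Desi2 was 0.01 with the mean of probe sets, 0.02 with centring, 0.01 with array weights, 0.09 with sex as a term, 0.05 without KO 1 and SNP 1, and -0.15 to 0.09 with each array left out. The cause was not tested.

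Genes called in KO minus WT numbered 3 with the mean of probe sets, 1 with quantile normalization, 1 with only the groups compared, 507 with array weights, 4 without KO 1 and SNP 1, 3 among all probe sets, and 0 to 5 with each array left out. In SNP minus wtKI they were 1 with only the groups compared, 3 among all probe sets and 0 to 2 with each array left out. None of these small sets held one of the 4 genes. With array weights 2 BBSome list genes (Bbs7 and Wdpcp) and 1 SUMO gene (Pias1) passed in KO minus WT, all named after their values were seen. With the replicate block, the replicate number as a term, Zdhhc2 was at 1.95 in KO minus WT (limma adjusted p = 0.304) and no call changed; all 3 same-numbered pairs of KO and SNP had r over 0.1 (0.353, 0.206 and 0.146), but KO 3 with SNP 2 had 0.313. In KO and WT and in SNP and wtKI, the groups set against each other here, not every pair did, and 3 of 12 arrays correlated best with their own number.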
